A study of Homo sapiens with 16 samples.

Results

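SNORD45A, SNORD45B and SNORD45C are small nucleolar RNAs (snoRNAs) encoded in introns of RABGGTB, which codes for the beta subunit of the enzyme that attaches geranylgeranyl lipid groups to Rab GTPases. The 3 members were taken by name from the table of snoRNA levels, which holds 413 entries, and were followed in all 16 libraries. Small RNA had been sequenced from extracellular vesicles (EVs) in conditioned media (CM) of the prostate cancer line PC3 and of the breast cancer line MDA-MB-231. EVs had been isolated by next-gen ATPS (an aqueous system of 2 polymers, in which EVs collect in a dextran-rich phase that is then digested with dextranase), by ultracentrifugation (UC) or with exoRNeasy, a spin-column kit that also extracts the RNA. RNA of the next-gen ATPS EVs, the UC EVs and the cells had been extracted with TRIzol, so that isolation and extraction cannot be told apart for exoRNeasy. The donor cells of each line were sequenced as well. The 8 groups were thus PC3 next-gen ATPS, UC and exoRNeasy EVs, PC3 cells, MDA-MB-231 next-gen ATPS, UC and exoRNeasy EVs, and MDA-MB-231 cells, with 2 libraries each. All CM came from cells kept in serum-free medium before collection, and each line stands for itself only. VC in the labels was taken to mean UC. Whether paired libraries stem from different cultures is stated nowhere, and the spread that the p-values rest on may therefore be technical. The snoRNA table holds no marker genes by which the labelled lines or materials could be checked.

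Box C/D snoRNAs, the class to which the members belong, guide the methylation of ribosomal RNA (rRNA) in the nucleolus. A stretch upstream of a box D or of an internal copy of it pairs with the rRNA, and the rRNA base paired with the fifth base before the box receives a methyl group on its ribose. Most human box C/D snoRNAs are cut out of introns of genes whose proteins or RNAs are made in most cells, so that a single transcript can yield several snoRNAs. The SNORD45 snoRNAs are known as guides for 18S rRNA, the RNA of the small ribosomal subunit.

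In hg38 with GENCODE v44, RABGGTB spans chr1:75786197-75795086 on the plus strand and its canonical transcript has 9 exons. SNORD45C lies in intron 1 (chr1:75787072-75787150, plus strand, 79 bases), which also falls inside the span of the neighbouring gene ACADM. SNORD45A lies in intron 2 (chr1:75787889-75787972, plus strand, 84 bases) and SNORD45B in intron 3 (chr1:75789477-75789548, plus strand, 72 bases). All 3 are on the strand of their host. The sequences are shown because they tell which reads can be assigned to which member, and which rRNA bases the members can pair with. Capitals mark runs of at least 10 bases that are fully complementary to 18S rRNA.
SNORD45A: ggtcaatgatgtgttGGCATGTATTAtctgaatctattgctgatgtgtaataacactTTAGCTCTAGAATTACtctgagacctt
SNORD45B: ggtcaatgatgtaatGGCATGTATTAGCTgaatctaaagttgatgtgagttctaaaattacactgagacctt
SNORD45C: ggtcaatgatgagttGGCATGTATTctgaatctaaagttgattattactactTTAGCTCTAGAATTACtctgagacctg

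**Figure D1:**
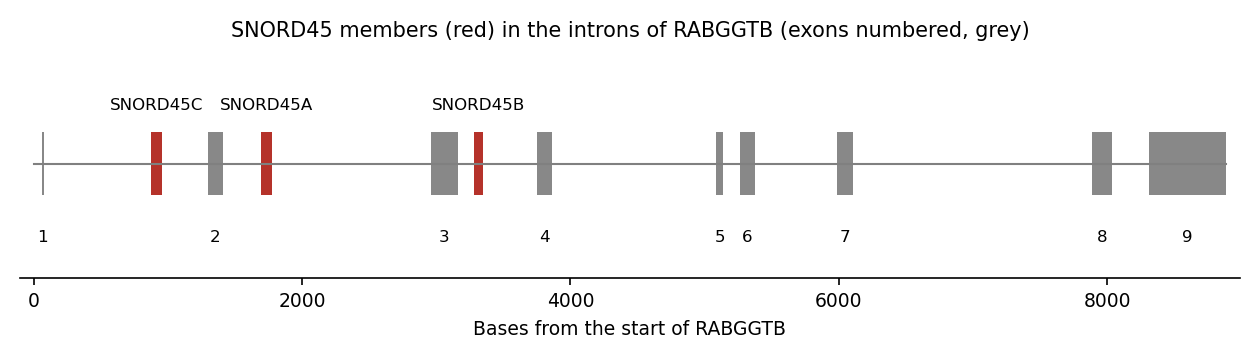
Positions of the 3 SNORD45 members (red) and of the exons of RABGGTB (grey, numbered), in bases from the start of the host gene, drawn to scale. SNORD45C, SNORD45A and SNORD45B stand in this order in introns 1, 2 and 3.

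Every member holds TGATG, the core of box C, near its 5′ end and CTGA, the box D, near its 3′ end. Of 313 C/D transcripts of GENCODE v44, read on their own strand, 87.9% hold TGATG and 96.8% hold CTGA. A run of at least 10 bases that pairs with 18S rRNA was found in 22.4% of them. Each member had such a run at the internal CTGA, which in SNORD45B runs into the box, and by the rule of the fifth base it faces 18S position 172 in SNORD45A and SNORD45B and position 174 in SNORD45C. SNORD45A and SNORD45C each have another run, of 16 bases, before the terminal CTGA, which faces position 159. Only 4 of the 313 transcripts (1.28%), these 2 among them, have a run of at least 16 bases, and SNORD45B has none before its terminal CTGA. These matches describe letters and were not tested for function.

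The 2 members with the run of 16 bases also resemble each other most. SNORD45A and SNORD45C are identical in 84.5% of aligned columns, SNORD45A and SNORD45B in 75.0%, and SNORD45B and SNORD45C in 75.3%. Reads of 18 to 35 bases were kept, so the values count fragments of the snoRNAs. SNORD45A and SNORD45C share the 29 bases actttagctctagaattactctgagacct. Fragments inside it, which cover 12 of the 67 windows of 18 bases in SNORD45A (17.9%) and 12 of the 62 in SNORD45C (19.4%), cannot be told apart. Per the study's methods, reads with several matches were kept and uniquely mapped reads weighed more, without a statement of how a read is split between 2 such members. SNORD45B shares no window of 18 bases with the other two. Exact matches of 18 bases or more elsewhere in the genome cover 27.3% of the windows of SNORD45B, 11.3% of those of SNORD45C and 7.46% of those of SNORD45A, and none of these matches was longer than 20 bases.

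Levels are given as the deposited TPM, which here is a member's share of the snoRNA reads of its library, scaled to a fixed total and without a length term (CPM). EV libraries held 41519 to 400429 snoRNA reads and 3 of the 4 cell libraries 3555333 to 10849128. The exception, MDA-MB-231 cell replicate 2, held 16635, so that 1 read there is worth 60.1 TPM and a value of 0 allows up to 180 TPM (3 reads). Intervals are 95% Wilson intervals and, like this floor, cover counting error only. Because each value is a share of the snoRNA reads, a change of other snoRNAs shifts it, and in bulk RNA fewer vesicles or cells of a kind cannot be told apart from less RNA in each of them.

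SNORD45A, with its runs facing positions 172 and 159, was the most abundant member in all but 2 libraries. In PC3 EVs it had 2580 and 1903 TPM with next-gen ATPS, 2190 and 2696 TPM with UC, and 2620 and 2315 TPM with exoRNeasy, against 2101 and 1902 TPM in PC3 cells. In MDA-MB-231 EVs it had 1448 and 2151 TPM with next-gen ATPS, 2425 and 2807 TPM with UC, and 2268 and 2849 TPM with exoRNeasy, against 2090 and 1864 TPM in MDA-MB-231 cells. EVs and cells overlapped in both lines, and the lowest value of all stood in a next-gen ATPS library. SNORD45A was among the most even snoRNAs of the table. Its coefficient of variation over the 16 libraries was 17.1%, the third lowest of the 138 snoRNAs above 0 in all libraries, whose median was 45.8%. Its place in the order of abundance within a library ranged from 46 to 70 of the 413 entries.

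**Figure D2:**
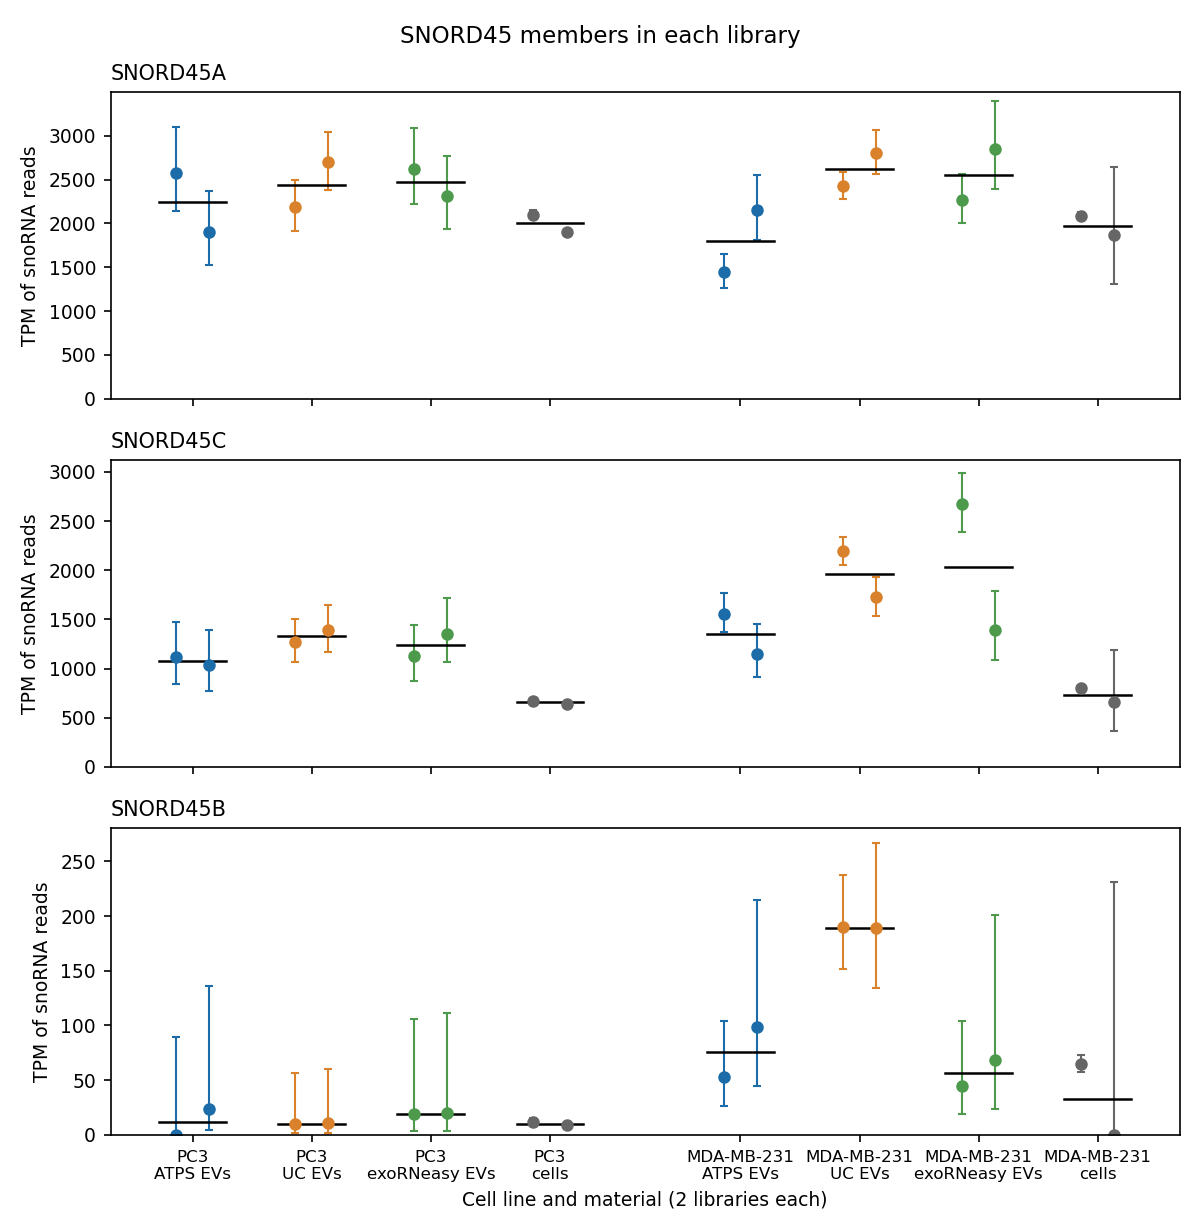
TPM of SNORD45A, SNORD45C and SNORD45B in each of the 16 libraries (points, replicate 1 left of replicate 2), with 95% Wilson intervals of the reads (bars) and the mean of each group (black lines), by line and material. The points of all 12 EV libraries exceed those of the 4 cell libraries for SNORD45C, but the interval of MDA-MB-231 cell replicate 2 reaches some of them. SNORD45A overlaps between EVs and cells, and SNORD45B is near 0 in every PC3 library.

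SNORD45C, which faces positions 174 and 159, was higher in all 12 EV libraries than in the 4 cell libraries. In PC3 EVs it had 1116 and 1036 TPM with next-gen ATPS, 1268 and 1391 TPM with UC, and 1123 and 1354 TPM with exoRNeasy, against 669 and 643 TPM in PC3 cells. In MDA-MB-231 EVs it had 1554 and 1149 TPM with next-gen ATPS, 2193 and 1726 TPM with UC, and 2670 and 1391 TPM with exoRNeasy, against 799 and 661 TPM in MDA-MB-231 cells. No EV library fell to the level of a cell library in either line. The value of MDA-MB-231 cell replicate 2 rests on 11 reads, and its interval of 369 to 1184 TPM reaches some EV values. How many other snoRNAs separate in this way was not counted. Of all snoRNAs tested, limma called 18.5% higher in EVs of all methods than in cells in PC3, and 41.2% in MDA-MB-231. Replicates lay close together in PC3 and farther apart in MDA-MB-231 EVs, where replicate 1 was the higher one with each method. The coefficient of variation was 42.7%, near the middle of the 138 snoRNAs.

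SNORD45B, which faces position 172 only, was the least abundant member in every library. PC3 EVs held 5 reads of it in all 6 libraries together, namely none in next-gen ATPS replicate 1 and 1 in each of the other 5, which gives 0 to 24.1 TPM, against 41 and 100 reads, or 11.5 and 9.22 TPM, in PC3 cells. The zero of the first library allows up to 69.7 TPM. In MDA-MB-231 EVs it had 52.9 and 98.5 TPM with next-gen ATPS, 190 and 189 TPM with UC, and 44.6 and 68.4 TPM with exoRNeasy, against 64.9 TPM (253 reads) and 0 TPM in MDA-MB-231 cells. The zero in MDA-MB-231 cells stands in the library of 16635 reads, whose floor of 180 TPM is above the value of replicate 1. The MDA-MB-231 EV values rest on 76 and 32 reads with UC but on only 3 to 8 reads per library with next-gen ATPS and exoRNeasy. Every MDA-MB-231 EV library was above every PC3 library in its point value. The Wilson interval of each PC3 EV library, with upper ends of 56.1 to 136 TPM, nevertheless reaches some of these MDA-MB-231 EV values. How many other snoRNAs separate the lines in this way was not counted.

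Per length the order of the members was the same. SNORD45A had a higher TPM per 100 bases than SNORD45C in 14 of 16 libraries, and SNORD45C exceeded SNORD45B in 16 of 16. In PC3 EVs the median TPM per 100 bases was 2914 for SNORD45A, 1513 for SNORD45C and 20.4 for SNORD45B, against 2383, 830 and 14.4 in PC3 cells. In MDA-MB-231 EVs these medians were 2793, 2075 and 116, against 2353 and 924 in MDA-MB-231 cells, where SNORD45B had 0 and 90.1 in the 2 libraries. The 2 libraries in which SNORD45C was above SNORD45A were replicate 1 of MDA-MB-231 next-gen ATPS EVs and replicate 1 of MDA-MB-231 exoRNeasy EVs.

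The first comparison asked how RNA of the EV isolates differs from that of the donor cells. From cell RNA added to CM, the study proposes that ATPS also brings down cell-free RNA, so the EV values may include RNA from outside vesicles. It also reports that RNase treatment of CM alone left the short EV RNA unaffected. SNORD45C rose in EVs of both lines, SNORD45A did not pass the test in either, and SNORD45B could not be settled. With limma on log2(TPM + 1) over the 357 snoRNAs tested, SNORD45C was higher by 0.88 in PC3 EVs of all methods than in PC3 cells (log2, SE 0.28, 95% interval 0.29 to 1.47, Benjamini-Hochberg adjusted p = 0.0325). In MDA-MB-231 the difference was 1.23 (SE 0.28, interval 0.64 to 1.83, limma adjusted p = 0.00177). SNORD45A differed by 0.24 in PC3 (interval -0.25 to 0.74, limma adjusted p = 0.573) and by 0.20 in MDA-MB-231 (interval -0.29 to 0.69, adjusted p = 0.496). SNORD45C was thus 1 of 3 members past the threshold of 0.05 in each line, where 20.7% of all snoRNAs tested were called in PC3 and 46.5% in MDA-MB-231. In MDA-MB-231 the median log2 difference of all snoRNAs tested was 1.56, above that of SNORD45C, which stood at place 204 of 357 from the highest. In PC3 the median was 0.00 and SNORD45C stood at place 112. The differences of the 2 lines were not shown to differ from each other (-0.35, SE 0.39, limma adjusted p = 0.569, with 17.1% of all snoRNAs called).

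These calls depended on the scaling and on single libraries. SNORD45C remained past the threshold with a pseudocount of 10, without the filter, with the replicate block and with DESeq2 (0.83, adjusted p = 0.0369 in PC3 and 1.10, adjusted p = 0.00761 in MDA-MB-231). It fell short with edgeR and TMM (0.48 in PC3 and 0.63 in MDA-MB-231), after centring on the 138 snoRNAs above 0 in all libraries (0.46 in PC3 and 0.47 in MDA-MB-231), and after quantile normalization (0.27 in PC3 and 0.01 in MDA-MB-231). The sign stayed positive in all of them. SNORD45A turned negative in both lines with edgeR, centring and quantile normalization, and the centred difference in MDA-MB-231 (-0.57) passed the threshold (limma adjusted p = 0.0401). The PC3 call was also lost without either replicate of next-gen ATPS EVs, of UC EVs or of cells, and without exoRNeasy replicate 2 (adjusted p up to 0.267), while the MDA-MB-231 call held without each library in turn (adjusted p up to 0.0329).

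**Figure D3:**
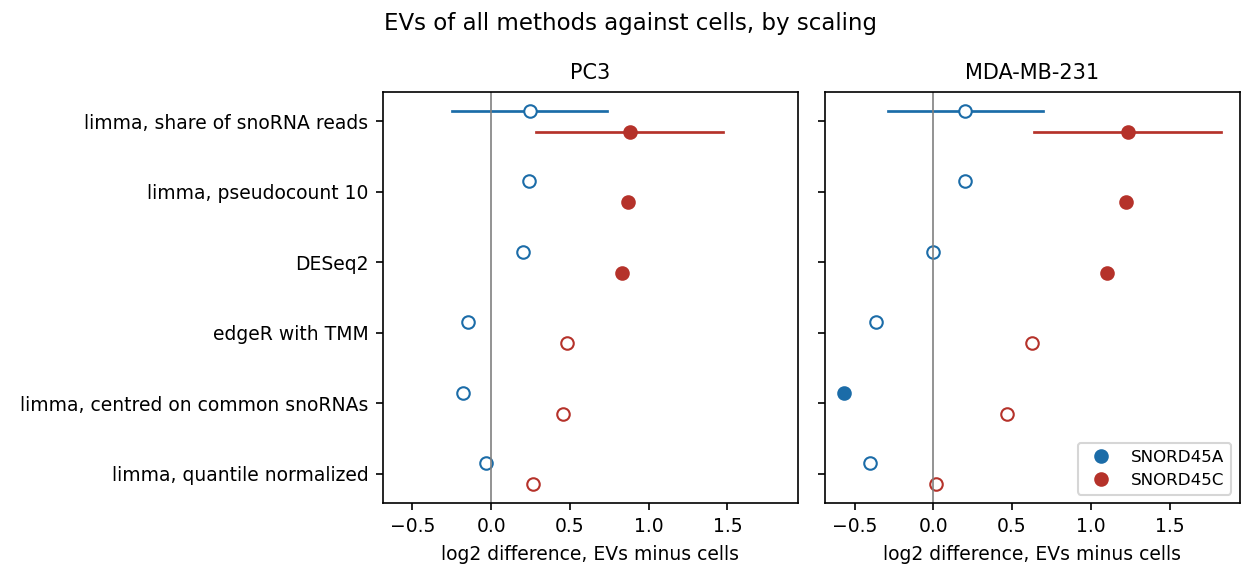
Log2 difference between EVs of all methods and cells for SNORD45A (blue) and SNORD45C (red) in PC3 (left) and MDA-MB-231 (right) under 6 ways of scaling and testing. Filled points have an adjusted p under 0.05, lines on the top row are 95% intervals of the limma fit, and SNORD45C stands right of SNORD45A on every row of both lines.

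By method, SNORD45C in MDA-MB-231 was higher in UC EVs than in cells by 1.42 (SE 0.34, limma adjusted p = 0.00307) and in exoRNeasy EVs by 1.41 (SE 0.34, adjusted p = 0.00381). Of all snoRNAs, 50.7% and 38.7% were called in these comparisons. In MDA-MB-231 next-gen ATPS EVs the difference was 0.88 (limma adjusted p = 0.0519, 40.1% of snoRNAs called). In PC3 it was 0.71 with next-gen ATPS (limma adjusted p = 0.206), 1.02 with UC (adjusted p = 0.0530) and 0.91 with exoRNeasy (adjusted p = 0.0905), where 17.4%, 16.8% and 17.6% of snoRNAs were called. UC in PC3 passed with a pseudocount of 10 (limma adjusted p = 0.0444) and without the filter (adjusted p = 0.0393). None of these 6 comparisons was called for SNORD45C by edgeR. Of all 357 snoRNAs, edgeR called 84 (next-gen ATPS), 139 (UC) and 108 (exoRNeasy) in PC3, and 178, 227 and 172 in MDA-MB-231. DESeq2 called SNORD45C in MDA-MB-231 UC EVs (1.09, adjusted p = 0.0254) and exoRNeasy EVs (1.43, adjusted p = 0.00399), and in no other of them. It called 176 and 139 of all snoRNAs there. Without replicate 1 of MDA-MB-231 exoRNeasy EVs the difference there was 0.94 (limma adjusted p = 0.0456). All 6 estimates share the cell libraries of their line and are not independent of each other.

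SNORD45B showed a called difference in a single one of these comparisons, MDA-MB-231 UC EVs against cells. There limma gave 4.55 (SE 1.71, adjusted p = 0.0386), with the zero of the shallow cell library in the cell mean. Without that library the difference was 1.53 (adjusted p = 0.481), edgeR gave 0.94 (adjusted p = 0.118), and the call was lost in 12 of the 16 fits that left out a library (adjusted p up to 0.481). In summed reads, SNORD45B made up 139 TPM in MDA-MB-231 EVs (130 reads, exact Poisson interval 116 to 165) and 64.6 TPM in MDA-MB-231 cells (253 reads, 56.9 to 73.1). For PC3 the sums were 13.0 TPM in EVs (5 reads, 4.23 to 30.4) and 9.79 TPM in cells (141 reads, 8.24 to 11.5). Of the 130 reads in MDA-MB-231 EVs, 108 came from UC, 14 from next-gen ATPS and 8 from exoRNeasy. The group means were 189, 75.7 and 56.5 TPM in the same order, so the pooled EV value mostly reflects UC. All 253 reads of MDA-MB-231 cells came from replicate 1 (64.9 TPM). These intervals cover counting error over pooled libraries, not the spread between them.

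A ratio of 2 members within a library does not depend on what the other snoRNAs do. SNORD45C amounted to 43.2 and 54.4 reads per 100 SNORD45A reads in PC3 EVs isolated by next-gen ATPS, 57.9 and 51.6 after UC and 42.9 and 58.5 after exoRNeasy, against 31.8 and 33.8 in PC3 cells. In MDA-MB-231 it amounted to 107 and 53.4 after next-gen ATPS, 90.4 and 61.5 after UC and 118 and 48.8 after exoRNeasy, against 38.2 and 35.5 in MDA-MB-231 cells. The 12 EV libraries and the 4 cell libraries did not overlap. The value of MDA-MB-231 cell replicate 2 rests on 11 SNORD45C and 31 SNORD45A reads, and its SNORD45C share of the family's reads, 26.2%, has a 95% Wilson interval of 15.3 to 41.1%, which reaches into the EV shares of 29.9 to 53.6%. The 3 highest ratios were the replicates 1 of the 3 MDA-MB-231 methods, while replicates 2 of these groups lay between 48.8 and 61.5. With each method replicate 1 was also the deeper library. It held 151267 snoRNA reads against 60912 with next-gen ATPS, 400429 against 169221 with UC and 111985 against 43868 with exoRNeasy. The part of depth in this split was not tested.

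**Figure D4:**
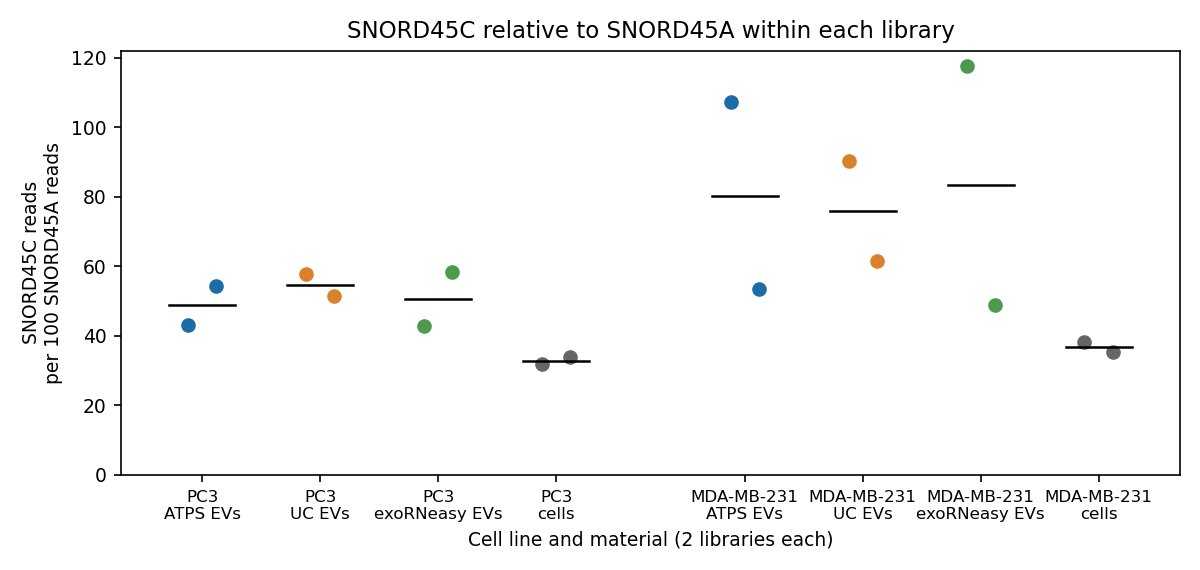
SNORD45C reads per 100 SNORD45A reads in each of the 16 libraries (points) and group means (black lines), by line and material. The 4 cell libraries lie between 31.8 and 38.2 and the 12 EV libraries between 42.9 and 118.

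The log2 ratio of SNORD45A to SNORD45C averaged 0.69 ± 0.49 in EVs (SD, n = 12) and 1.51 ± 0.12 in cells (SD, n = 4), a difference of -0.83. In an exact two-sided permutation test within lines its p was 0.00128, the smallest that the 784 arrangements can give, and 0.0116 after Benjamini-Hochberg adjustment over 15 ratio tests. The direction held in every one of the 16 fits that left out a library, with differences of -0.89 to -0.76, and without replicate 1 of MDA-MB-231 UC EVs the adjusted p of the permutation test was 0.0510. The ratio tests treat the libraries of a line or material as exchangeable, and whether the methods were applied to the same CM is stated nowhere. The part of fragments from the shared 29 bases in this ratio was not tested. Of the family's reads, SNORD45C held a median of 34.4% in PC3 EVs, against 24.6% in PC3 cells, and 41.1% in MDA-MB-231 EVs, against 26.6% in MDA-MB-231 cells. The ratio of SNORD45B to SNORD45C did not separate EVs from cells (difference 0.02, exact permutation p = 0.960), and that of SNORD45A to SNORD45B missed the threshold (-0.85, exact permutation p = 0.0523, adjusted p = 0.157).

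The next comparison set the 3 isolation methods against each other, averaged over both lines. No member was called by limma, edgeR or DESeq2 in any pair of methods, and none had an unadjusted limma p under 0.05. DESeq2 gave SNORD45B no adjusted p between next-gen ATPS and UC, so it could not be called there. For next-gen ATPS minus exoRNeasy, SNORD45A had an unadjusted DESeq2 p of 0.0257 (-0.38, adjusted p = 0.237). Of all snoRNAs, limma called 0% between next-gen ATPS and UC (52 of 357 at an unadjusted p under 0.05, 16 with edgeR and 15 with DESeq2). Between next-gen ATPS and exoRNeasy it called 3.36% (43 at an unadjusted p under 0.05, 26 with edgeR and 18 with DESeq2). Between UC and exoRNeasy it called 13.7% (98 at an unadjusted p under 0.05, 70 with edgeR and 55 with DESeq2). SNORD45A differed by -0.35 between next-gen ATPS and UC EVs (interval -0.77 to 0.08) and SNORD45C by -0.42 (interval -0.94 to 0.09). Against exoRNeasy the next-gen ATPS differences were -0.34 (interval -0.77 to 0.09) for SNORD45A and -0.36 (interval -0.88 to 0.15) for SNORD45C. Between UC and exoRNeasy EVs they were 0.01 (interval -0.42 to 0.43) and 0.06 (interval -0.45 to 0.57). These intervals leave room for a difference of nearly 1 on the log2 scale for SNORD45C between next-gen ATPS and UC, so that the methods are not shown to be alike.

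For SNORD45B the method intervals were too wide to be of use. They ran from -3.86 to 1.32 for next-gen ATPS minus UC, from -3.40 to 1.77 for next-gen ATPS minus exoRNeasy, and from -2.13 to 3.05 for UC minus exoRNeasy. In MDA-MB-231, both UC libraries (190 and 189 TPM) lay above the next-gen ATPS (52.9 and 98.5 TPM) and exoRNeasy libraries (44.6 and 68.4 TPM), while every PC3 EV library had 0 or 1 read. The test of whether the method difference itself differed between lines did not pass for next-gen ATPS minus UC (limma adjusted p = 1, 0% of snoRNAs called) or for UC minus exoRNeasy (adjusted p = 0.640, 0.28% called). The within-library ratios of the members gave exact permutation p of 0.5 or more for all 9 pairs of ratio and methods, in a design of 36 arrangements that cannot go below 0.0556.

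Between the lines, no member passed a limma test on log2(TPM + 1) with all libraries and no further scaling. The limma estimates for SNORD45B were lower in PC3 than in MDA-MB-231 for EVs of each method, but not for cells. SNORD45A differed by 0.02 in cells and, among EVs, by 0.33 (next-gen ATPS), -0.10 (UC) and -0.05 (exoRNeasy), as PC3 minus MDA-MB-231 on the log2 scale (limma adjusted p from 0.506 to 1). SNORD45C differed by -0.15, -0.31, -0.55 and -0.64 in the same order (adjusted p from 0.276 to 0.843), and the UC difference passed after quantile normalization only (-1.12, limma adjusted p = 0.0386). SNORD45B differed by 0.48 in cells and, among EVs, by -3.87 (next-gen ATPS), -4.08 (UC) and -1.48 (exoRNeasy), with SE of 1.71 and limma adjusted p of 0.896, 0.207, 0.109 and 0.642. Without either replicate of MDA-MB-231 cells the UC difference passed (adjusted p = 0.0331 and 0.0276). No member was thus called by limma in cells, next-gen ATPS, UC or exoRNeasy EVs, where 22.4%, 6.16%, 19% and 8.96% of all snoRNAs were. At an unadjusted limma p under 0.05, 1 member passed with next-gen ATPS, where 77 of all 357 snoRNAs did. With UC 1 member also passed, against 115 of all snoRNAs. No member passed for cells or with exoRNeasy, where 123 and 61 of all snoRNAs did.

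The count fits read SNORD45B otherwise in cells and UC EVs. In cells edgeR gave -3.07 (adjusted p = 2.48e-07) and DESeq2 -2.65 (adjusted p = 0.0134). All 253 SNORD45B reads of MDA-MB-231 cells came from replicate 1, and the 0 of replicate 2 allows up to 180 TPM. The MDA-MB-231 side of these 2 fits thus rests on replicate 1. Both estimates have the opposite sign of limma, whose mean for MDA-MB-231 cells includes the 0 of the shallow library. Without that library limma gave -2.54 (adjusted p = 0.378). In UC EVs edgeR gave -4.47 (adjusted p = 6.00e-06) and DESeq2 -4.33 (adjusted p = 0.00365), and limma itself passed there with a pseudocount of 10 (-3.30, adjusted p = 0.00864) and after quantile normalization (-5.01, adjusted p = 0.0120). In next-gen ATPS and exoRNeasy EVs neither count fit called it. The values behind these estimates are 11.5 and 9.22 TPM in PC3 cells and 9.91 and 10.6 TPM in PC3 UC EVs, against 64.9 and 0 TPM in MDA-MB-231 cells and 190 and 189 TPM in MDA-MB-231 UC EVs.

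The ratio to SNORD45A, which is free of the scaling, also differed between the lines on average. There were 0 to 1.27 SNORD45B reads per 100 SNORD45A reads in the 8 PC3 libraries, against 1.97 to 7.83 in the 7 MDA-MB-231 libraries with any SNORD45B read and 0 in the shallow one, which held 31 SNORD45A reads. With 0.5 reads added, the log2 ratio of SNORD45A to SNORD45B ranged from 5.73 to 7.80 in PC3 and from 3.67 to 5.98 in MDA-MB-231, so the lines overlapped. Every PC3 EV library had 0 or 1 SNORD45B read, so its log2 ratio rests on the added 0.5 and on depth. The mean was 7.02 ± 0.74 in PC3 and 4.78 ± 0.80 in MDA-MB-231 (SD, n = 8 each), a difference of 2.24 (exact permutation p within materials = 0.00154, adjusted p = 0.0116). It held without each library in turn, with differences of 1.98 to 2.50 and adjusted p up to 0.0255. The log2 ratio of SNORD45B to SNORD45C differed by -1.77 (exact permutation p = 0.00772, adjusted p = 0.0386), and that of SNORD45A to SNORD45C by 0.47 (exact permutation p = 0.0293, adjusted p = 0.110). The SNORD45B to SNORD45C call was lost without any 1 of 5 libraries, namely PC3 next-gen ATPS replicate 1, either replicate of PC3 cells, MDA-MB-231 UC replicate 1 and MDA-MB-231 exoRNeasy replicate 2 (adjusted p up to 0.0617).

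Other snoRNAs that guide methylation of 18S rRNA did not move together. Of 37 named guides other than the members, 32 were in the table and tested. In PC3 EVs of all methods against cells 10 rose and 2 fell, with a median log2 difference of 0.02, while 18.5% of all snoRNAs tested rose and 2.24% fell, with a median of 0.00. In MDA-MB-231 10 rose and 6 fell, with a median of 0.20, while 41.2% of all snoRNAs rose and 5.32% fell, with a median of 1.56. SNORD62A and SNORD62B had identical differences (1.96 in PC3 and 1.94 in MDA-MB-231) and are both counted as risers, so the counts do not stand for independent guides. SNORD20 rose most, by 5.47 in PC3 and 5.19 in MDA-MB-231 (SE 0.19 each, limma adjusted p = 2.20e-11 and 4.47e-11). SNORD14B, 1 of several near-identical copies whose reads may be shared, rose by 5.07 in MDA-MB-231 (limma adjusted p = 0.000258), but by 2.70 without cell replicate 2 and by 7.45 without cell replicate 1. Its relative SNORD14A rose by 2.57 in PC3 (limma adjusted p = 0.00571), which was lost without cell replicate 2 (adjusted p = 0.109). The largest decreases were those of SNORD42A in MDA-MB-231 (-1.34, limma adjusted p = 0.000656), SNORD70 in PC3 (-1.29, adjusted p = 0.0120) and SNORD65 in MDA-MB-231 (-1.22, adjusted p = 0.00238). SNORD65 rose in PC3 EVs (1.21, limma adjusted p = 0.00571). The PC3 calls were lost without cell replicate 2 for SNORD65 (adjusted p = 0.127) and without either cell replicate for SNORD70 (adjusted p = 0.114 and 0.135). In limma without further scaling, SNORD45C thus stood among these guides with those that rose and SNORD45A with those that passed in neither direction. With edgeR, centring or quantile normalization SNORD45C passed in neither line. After centring SNORD45A was called lower in MDA-MB-231 EVs (-0.57, limma adjusted p = 0.0401).

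The profiles of the members across the 16 libraries were only weakly alike. On log2(TPM + 1), Pearson's r was 0.34 between SNORD45A and SNORD45C, 0.55 between SNORD45B and SNORD45C and 0.14 between SNORD45A and SNORD45B, and within the 12 EV libraries the first of these was 0.04. The snoRNAs most like SNORD45A were SNORD14D (r = 0.62), SNORD7 (0.54) and SNORD33 (0.50), none of them close. Those most like SNORD45C were SNORA71A, SNORD3B-2 and SNORD3B-1 (r = 0.87 each), of which the last 2 are copies of U3, the snoRNA of early rRNA processing, and may share reads. Only snoRNAs above 0 in all libraries were candidates. Those most like SNORD45B were SNORA64 (0.85), SNORA16A (0.81) and SNORD12C (0.69), and the entry named SNORD45 without a letter, which was no candidate because it is at 0 in some libraries, had r = 0.80 with SNORD45B. These coefficients describe 16 libraries that fall into EVs and cells and into 2 lines, share totals within a library and differ in depth, so they carry no test.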

How the data were processed

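Small RNA libraries (NEBNext kit, single-end reads) of PC3 and MDA-MB-231 EVs and cells were analysed as deposited. Per the study's methods, reads were trimmed at quality 20 over 4 bases, kept at 18 to 35 bases, aligned to hg38 with STAR and annotated with COMPSRA, tools whose versions the sources used here leave out. From these alignments the authors made and deposited snoRNA values named TPM, which are CPM over the snoRNA reads of a library, with no length term. Whole reads were recovered from them, since every column has the same sum and 100% of its values are multiples of 1 read within 0.1 read. The fixed total makes each value relative to the other snoRNAs. The miRNA and circRNA tables were not used.

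limma 3.58.1 (R 4.3.3, trend and robust options) was fitted on log2(TPM + 1) with 8 group means over the 357 snoRNAs at 1 TPM or more in at least 2 libraries, and p-values were Benjamini-Hochberg adjusted per comparison over 19 comparisons, with a threshold of 0.05. On this scale the added 1 pulls fold changes between low values toward 0, while a 0 in a shallow library can enlarge a difference. Within-library ratios of reads + 0.5 were compared by exact two-sided permutation in 15 tests. Replicates of all 8 groups differed beyond sampling noise (chi-square tests). The alternatives were a pseudocount of 10, no filter, quantile normalization, centring, edgeR 4.0.16 with TMM, DESeq2 1.42.0, a replicate block and leaving out each library. edgeR on 14 libraries was added after seeing the data, because the read recovery of the other 2 (MDA-MB-231 cell replicate 2 and PC3 UC replicate 1) was less certain. Fits were tested on simulated data. Members and lists were chosen with earlier results of these data known. Besides the members, the text names the 3 snoRNAs with the most similar profile to each, and of the 18S guides up to 3 with the largest called change in each direction in EVs of all methods against cells. Figures were drawn with matplotlib 3.10.9.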

Additional observations from a re-analysis of the deposited data

Results flagged for a closer look

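The table also holds an entry named SNORD45 without a letter, which is no member and has no gene of that name in the annotation used. Its highest EV value was 169.8 TPM, in replicate 1 of MDA-MB-231 UC EVs, with 124.1 TPM in replicate 2, against 14.4 and 0 TPM in MDA-MB-231 cells. In PC3 it had 0 TPM in 5 of the 6 EV libraries and 37.4 TPM (2 reads) in the other, against 0.563 and 1.01 TPM in PC3 cells. Which bases it covers is not given in the sources used here.

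Among the other 18S guides, the difference between EVs and cells itself differed between the lines for SNORD65 (2.43, SE 0.40, limma adjusted p = 0.000366 for the PC3 difference minus the MDA-MB-231 difference) and for SNORD42A (1.27, SE 0.37, adjusted p = 0.0255).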

How the results depend on the processing

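Of 1358 alternative values for 61 results, 1175 kept their direction and their side of the threshold, 57 lost a call, 34 gained one and 92 changed sign, 4 of these with the alternative value past the threshold. The cause of these changes was not tested. Differences are log2. The median of all snoRNAs between EVs and cells moved with the scaling, in PC3 and MDA-MB-231, from 0.00 and 1.56 to -0.42 and 0.79 after centring, -0.32 and 1.60 with edgeR, 0.84 and 1.02 with DESeq2 and -0.25 and -0.55 after quantile normalization, and the calls in PC3 were split 66 higher and 8 lower with limma, 52 and 46 after centring, and 87 and 48 with edgeR.

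For EVs against cells, SNORD45A gave -0.033, -0.18, -0.15 and -0.095 in PC3 with quantile normalization, centring, edgeR and edgeR on 14 libraries, and -0.40, -0.57, -0.37 and -0.71 in MDA-MB-231, with -3.85e-05 for DESeq2. Only the centred value in MDA-MB-231 passed the threshold (adjusted p = 0.0401). SNORD45C gave 0.27, 0.46, 0.48 and 0.51 in PC3 and 0.014, 0.47, 0.63 and 0.32 in MDA-MB-231 under the same settings, none past the threshold. SNORD45B gave 0.12 with pseudocount 10 and 0.31 with DESeq2 in PC3, and in MDA-MB-231 1.91 with pseudocount 10 (now past the threshold), -0.19 with quantile normalization, -0.22 with edgeR and -0.38 with edgeR on 14 libraries.

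For UC minus exoRNeasy, SNORD45A gave -0.19 after centring, -0.037 with edgeR and -0.21 with DESeq2, SNORD45B -0.67 with quantile normalization, and SNORD45C -0.055, -0.13, -0.0055 and -0.22 with quantile normalization, centring, edgeR and DESeq2. Between lines in cells, SNORD45A gave -0.23, -0.43, -0.31, -0.28 and -0.66 with quantile normalization, centring, edgeR, DESeq2 and edgeR on 14 libraries, and 0.21 in exoRNeasy EVs with quantile normalization. SNORD45B in cells gave -0.43 with pseudocount 10, -1.10 with quantile normalization, -3.07 with edgeR, -2.65 with DESeq2 and -3.24 with edgeR on 14 libraries. For the difference of the lines in EVs minus cells, SNORD45B gave 0.19 with edgeR and 0.37 on 14 libraries, and SNORD45C 0.25 with quantile normalization and 0.19 with edgeR on 14 libraries. SNORD45C in MDA-MB-231 next-gen ATPS EVs minus cells gave -0.34 with quantile normalization and -0.10 with edgeR on 14 libraries. SNORD14A in MDA-MB-231 EVs of all methods minus cells, called at 1.72 in the main fit (limma adjusted p = 0.0292), gave -1.27 with quantile normalization. With 1 read added, the ratios for next-gen ATPS minus UC gave -0.080 (SNORD45A to SNORD45B) and 0.15 (SNORD45B to SNORD45C).

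The labels do not pair the replicate numbers (correlation of deviations -0.26 to 0.72 over 28 group pairs, 14 above 0.1). Among the members' results the replicate block moved 2 calls, both for SNORD45C: 1.02 in PC3 UC EVs (adjusted p = 0.0358) and 0.88 in MDA-MB-231 next-gen ATPS EVs (adjusted p = 0.0360) then passed.

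Leaving out each library in turn moved EVs minus cells to 0.83 to 0.92 for SNORD45C in PC3, to -0.89 to 0.66 for SNORD45B in PC3 and to 0.49 to 6.53 for SNORD45B in MDA-MB-231 (extremes without either MDA-MB-231 cell replicate). SNORD45A ranged from -0.073 to 0.091 for UC minus exoRNeasy, and between lines from -0.064 to 0.10 in cells, -0.25 to 0.047 in UC EVs, -0.21 to 0.12 in exoRNeasy EVs and -0.054 to 0.14 for EVs minus cells. SNORD45B ranged from -1.98 to 0.35 for next-gen ATPS minus exoRNeasy and from -2.54 to 3.50 between lines in cells, and SNORD45C from -0.17 to 0.30 for UC minus exoRNeasy. The log2 ratio of SNORD45A to SNORD45C ranged from -0.89 to -0.76 for EVs minus cells, -0.18 to 0.32 for next-gen ATPS minus UC, -0.29 to 0.34 for next-gen ATPS minus exoRNeasy and -0.36 to 0.27 for UC minus exoRNeasy. That of SNORD45A to SNORD45B ranged from -0.42 to 0.62 for next-gen ATPS minus UC and -0.77 to 0.27 for next-gen ATPS minus exoRNeasy. That of SNORD45B to SNORD45C ranged from -0.20 to 0.25 for EVs minus cells, -0.47 to 0.40 for next-gen ATPS minus UC, -0.17 to 0.71 for next-gen ATPS minus exoRNeasy and -0.11 to 0.71 for UC minus exoRNeasy.

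The number of snoRNAs called also moved. In PC3 EVs against cells it was 74 with limma, 135 with edgeR, 133 with DESeq2 and 125 with edgeR on 14 libraries, and 43 and 31 without cell replicate 1 and 2. For next-gen ATPS minus exoRNeasy it was 12 (26 with edgeR, 19 with pseudocount 10), for next-gen ATPS minus UC 0 (16 with edgeR, 15 with DESeq2), and for UC minus exoRNeasy 49, with 12 without PC3 UC replicate 1. Between lines it was 68 in UC EVs (136 with edgeR, 17 without MDA-MB-231 UC replicate 1), 80 in cells (125 with edgeR) and 22 in next-gen ATPS EVs (40 with edgeR, 37 with DESeq2 and 1 without MDA-MB-231 ATPS replicate 1).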
